A study of Mus musculus with 2 samples.

Results

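The 10 genes described here encode the killing machinery of cytotoxic lymphocytes: Gzma, Gzmb, Gzmk, Prf1, Nkg7, Klrd1, Ctsw, Ncr1, Xcl1 and Ifng. They were chosen by symbol, and all 10 were found among the 32285 genes of the deposited matrices. Single cells came from the livers of 2 tumour-bearing mice that carry floxed alleles of Glul (Glul f/f), the gene of glutamine synthetase (GS). The GS-KO mouse had received AAV8-Cre and the control mouse AAV8-GFP, and both were used 7 weeks after the virus. AAV8 is known to deliver its cargo mainly to hepatocytes. Cells were taken from the supernatant of a collagenase digest, enriched for F4/80, a macrophage surface protein, with magnetic beads, and cleared of dead cells. Lymphocytes are therefore cells that passed an enrichment for another cell type.

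Natural killer (NK) cells and cytotoxic T cells kill by releasing granules that hold perforin and granzymes into the contact with a target cell. NK cells recognise targets through germline-encoded receptors, whereas T cells do so through the T cell receptor. The liver holds conventional NK cells, the related type 1 innate lymphoid cells (ILC1) and several T cell types, and these share many killer genes.

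With 1 mouse and 1 library per genotype there is no test between the genotypes, and the genotype cannot be told apart from the mouse, the digest or the sequencing well. Intervals given below are 95% intervals for counting error only. The GS-KO library held 1366 barcodes and 8805330 unique molecular identifiers (UMIs, counts of captured mRNA molecules), and the control library 5074 barcodes and 64770011 UMIs. The protocol states a minimum of 7500 cells. A share of 50.8% of GS-KO barcodes and 35.5% of control barcodes had over 20% mitochondrial UMIs and were left out. After the filters and the removal of called doublets, 655 GS-KO and 3251 control cells remained, with medians of 4104 and 7320 UMIs per cell. The libraries shared 1 barcode sequence, and none among the kept cells. Glul stood at 120 CPM (UMIs scaled to a total of 1000000 in the cells summed) over the GS-KO cells, against 1507 CPM over the control cells. In hepatocyte-like cells it was at 14.8 CPM in 13 GS-KO cells, against 2981 CPM in 409 control cells. Only 13 hepatocyte-like cells carry that check in the GS-KO library. In the lymphocytes Glul was low in both: 29.0 against 62.7 CPM in NK-like cells and 34.8 against 53.9 CPM in T-like cells, GS-KO first.

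Cells were clustered without the 10 genes and named from marker genes, so that the names do not rest on the genes described. NK-like cells numbered 21 in the GS-KO library (3.21% of its cells, 2.00 to 4.86) and 68 in the control library (2.09%, 1.63 to 2.64). T-like cells numbered 80 (12.2%) and 248 (7.63%) in the same order. Of the 17 NK markers, 2 were at 0 in GS-KO and 0 in control NK-like cells, and the list summed to 8659 and 9847 CPM there, against 597 and 716 CPM in the T-like cells. The 15 T cell markers summed to 2331 CPM in GS-KO and 2383 CPM in control NK-like cells, against 5881 and 7451 CPM in T-like cells. Within the NK-like cells, CD3 genes of the T cell receptor complex were detected in a minority. Cd3e was detected in 4.76% of GS-KO and 1.47% of control cells, Cd3d in 9.52% and 13.2%, and Cd3g in 14.3% and 16.2%. Cd4 and Cd8a were detected in none. The T cell markers Trbc1, Trbc2 and Skap1, by contrast, passed the marker rule in the NK-like cells of both libraries together. Each was at least 2-fold above all other kept cells and had a UMI in at least 20% of the NK-like cells. T-like cells were of effector-like sub-clusters (18 GS-KO and 72 control cells), naive-like sub-clusters (57 and 142 cells) and 1 sub-cluster without a state (5 and 34 cells). A sub-cluster of dividing cells (9 GS-KO and 24 control cells) was set apart after its genes were seen, and is described on its own.

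The genes lie on 7 chromosomes of the mouse genome. In GRCm38 with GENCODE annotation, where all 10 are protein coding, Gzma spans chr13:113093825-113100981 on the minus strand, and Gzmk lies 70.6 kb from it at chr13:113171608-113225908, also on the minus strand. Gzmb spans chr14:56258838-56262260 on the minus strand and Prf1 chr10:61297833-61304680 on the plus strand. Nkg7 spans chr7:43437073-43438249 and Ncr1 chr7:4337724-4345164, both on the plus strand. Klrd1 spans chr6:129591782-129598775 on the plus strand and Ctsw chr19:5465043-5468507 on the minus strand. Xcl1 spans chr1:164931644-164935527 on the minus strand and Ifng chr10:118441046-118445892 on the plus strand. Exons of Ctsw and Xcl1 overlap an annotated gene on the other strand (Fibp and Gm20743). Exons of Ifng overlap Gm49751 on the same strand. Whether the counting used strand is not given in the sources used here.

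The killer genes moved together between the cell types below, so their start regions are shown. RefSeq (GRCm38.p6) gave the start of 8 of the 10 genes, all but Klrd1 and Ctsw. The 250 bases before the start are printed 5′ to 3′ on the gene's own strand for 5 of them, shown as examples of the granzymes, perforin, the NK receptor and the chemokine described below and chosen after values were seen. Capitals mark letters of a T-box motif (TCACAC), a RUNX motif (TGTGGT) or an ETS motif (CAGGAAG) on either strand. The windows are chr13:113100982-113101231 (minus strand) for Gzma, chr14:56262335-56262584 (minus) for Gzmb, chr10:61297586-61297835 (plus) for Prf1, chr7:4337465-4337714 (plus) for Ncr1 and chr1:164935523-164935772 (minus) for Xcl1.
Gzma: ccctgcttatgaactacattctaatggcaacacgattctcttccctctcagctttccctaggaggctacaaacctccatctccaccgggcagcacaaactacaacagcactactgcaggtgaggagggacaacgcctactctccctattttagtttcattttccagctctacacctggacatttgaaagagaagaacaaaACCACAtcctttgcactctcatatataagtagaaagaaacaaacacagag
Gzmb: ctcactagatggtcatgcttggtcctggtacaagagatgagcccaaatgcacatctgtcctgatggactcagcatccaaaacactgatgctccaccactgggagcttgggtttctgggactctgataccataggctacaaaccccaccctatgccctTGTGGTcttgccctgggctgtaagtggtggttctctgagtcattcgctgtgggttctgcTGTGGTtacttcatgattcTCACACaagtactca
Prf1: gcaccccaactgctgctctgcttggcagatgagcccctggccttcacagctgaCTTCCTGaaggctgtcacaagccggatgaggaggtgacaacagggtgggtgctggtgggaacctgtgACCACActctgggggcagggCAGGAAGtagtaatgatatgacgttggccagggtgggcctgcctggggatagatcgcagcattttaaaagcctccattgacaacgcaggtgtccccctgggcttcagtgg
Ncr1: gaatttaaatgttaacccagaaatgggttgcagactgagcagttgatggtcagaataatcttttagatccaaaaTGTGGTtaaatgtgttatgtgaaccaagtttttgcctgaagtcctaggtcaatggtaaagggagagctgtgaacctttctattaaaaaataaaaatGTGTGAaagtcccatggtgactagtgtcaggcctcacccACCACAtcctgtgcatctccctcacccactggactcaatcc
Xcl1: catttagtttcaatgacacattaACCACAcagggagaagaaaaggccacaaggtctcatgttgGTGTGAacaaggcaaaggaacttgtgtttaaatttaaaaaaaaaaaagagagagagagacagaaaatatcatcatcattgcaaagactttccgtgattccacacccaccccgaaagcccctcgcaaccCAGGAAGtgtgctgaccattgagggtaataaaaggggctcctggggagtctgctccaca

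The RUNX letters were in 6 of the 8 windows (Gzma, Gzmb, Prf1, Nkg7, Ncr1 and Xcl1), against 14% of 32851 promoter windows of the same length. The T-box letters, bound by factors such as Eomes and T-bet, were in 5 of 8 (Gzmb, Gzmk, Nkg7, Ncr1 and Xcl1), against 12.3% of all windows. The ETS letters were in 3 of 8 (Prf1, Nkg7 and Xcl1), against 10.8%. TTCNNNGAA, a STAT motif, was in 2 of 8 (Nkg7 and Ifng, 7.02% of all windows), TGANTCA, an AP-1 motif, in 1 of 8 (Gzmb, 6.75%), and TGACGTCA, a CRE motif, in 0 of 8 (1.55%). No match overlapped another among 21. A match is a description of letters and not a binding site.

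NK-like cells carried the killer genes at many times the level of T-like cells in both libraries. A gene was called different at 2-fold or more with at least 20 UMIs over both sides. By that rule 9 of the 9 measured genes were higher in NK-like than in T-like cells in the GS-KO library, where 20.7% of the 3139 genes measured were, and 9 of 9 in the control library, where 15.2% of 6455 were. None was called lower, against 7.61% and 6.82% of genes. The median log2 ratio of the killer genes was 4.40 in GS-KO and 3.32 in control, beside 0.40 and 0.34 over all genes. Taken as a sum, the 10 genes made up 1.94% of NK-like UMIs in GS-KO and 1.93% in control, and 0.0636% and 0.104% of T-like UMIs. The depth of the cells was similar, with medians of 5748 and 5312.5 UMIs in NK-like cells and 6209.5 and 5450.5 in T-like cells, GS-KO first.

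The granzymes are serine proteases that trigger death inside the target cell. Gzma was at 9832 CPM in NK-like and 88.0 CPM in T-like cells of the GS-KO library, a ratio of 112 (82.5 to 155). In the control library it was at 8671 CPM in NK-like and 21.4 CPM in T-like cells, a ratio of 405 (285 to 597). Over 13 alternatives the ratio ran from 16.8 to 1865 in GS-KO and from 13.8 to 1168 in control, with the lowest values where the dividing sub-cluster was counted as T-like. It was detected in 95.2% of GS-KO and 82.4% of control NK-like cells, against 6.25% and 2.42% of T-like cells. B-like cells, which should lack the gene, gave 1.67% and 1.49% at medians of 3823 and 3669.5 UMIs, so the control T-like share was near that background. Gzmb was at 1564 CPM in NK-like and 43.0 CPM in T-like cells in GS-KO (36.4-fold, 23.2 to 60.02), and at 842 CPM and 62.2 CPM in control (13.5-fold, 10.7 to 17.3). Gzmk, a granzyme of memory and exhausted T cells, had 0 UMIs in the NK-like and T-like cells of both libraries. A count of 0 allows up to 21.7 CPM in GS-KO and 7.52 CPM in control NK-like cells, and up to 6.14 and 2.07 CPM in T-like cells. Only 2 Gzmk UMIs were found in all, both in 1 dividing control cell.

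Prf1, the pore-forming perforin that lets granzymes into the target, was at 775 CPM in NK-like and 36.8 CPM in T-like cells in GS-KO (21.0-fold, 12.7 to 36.9). In control it was at 827 CPM in NK-like and 30.4 CPM in T-like cells (27.2-fold, 19.8 to 38.1). Nkg7, a granule membrane protein needed for granule release, was at 3330 and 266 CPM in GS-KO (12.5-fold, 10.3 to 15.3) and at 4631 and 567 CPM in control (8.16-fold, 7.51 to 8.87), NK-like first. Ctsw, a cathepsin made by cytotoxic lymphocytes, was the member with the smallest ratio in each library, 8.99 (6.09 to 13.5) in GS-KO and 4.86 (3.98 to 5.94) in control. Its levels were 681 CPM in NK-like and 75.7 CPM in T-like cells in GS-KO, and 591 and 122 CPM in control. Perforin and its granule partners thus differed in the same direction as the granzymes, by smaller factors than Gzma.

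The 2 receptors of the set behaved differently in T-like cells. Ncr1, the activating receptor NKp46, had a UMI in 21 of 21 GS-KO and 68 of 68 control NK-like cells, at 1238 and 1855 CPM. It had 0 UMIs in the 80 GS-KO T-like cells, which allows a share of cells with a UMI of up to 3.75% and a level of up to 6.14 CPM. The level in NK-like cells was at least 202-fold higher, against 3 counts over the group. In control T-like cells it was at 11.1 CPM, from 16 UMIs in 6 of 248 cells, and the ratio was 168 (103 to 295). Klrd1, the CD94 chain that pairs with NKG2 receptors, was at 912 CPM in NK-like and 77.7 CPM in T-like cells in GS-KO (11.7-fold, 8.11 to 17.3). In control it was at 1278 CPM in NK-like and 128 CPM in T-like cells (10.0-fold, 8.43 to 11.9), and it was detected in 25% of GS-KO and 27.0% of control T-like cells.

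The secreted products were detected in fewer NK-like cells. Xcl1, a chemokine that draws cross-presenting dendritic cells, was at 767 CPM in NK-like and 38.9 CPM in T-like cells in GS-KO (19.7-fold, 12 to 34.1). In control it was at 461 CPM in NK-like and 76.7 CPM in T-like cells (6.01-fold, 4.72 to 7.68). A UMI of Xcl1 was found in 42.9% of GS-KO and 36.8% of control NK-like cells. Ifng, the interferon that activates macrophages, was at 304 CPM in NK-like and 10.2 CPM in T-like cells in GS-KO (29.7-fold, 11.8 to 96.3). In control it was at 178 and 21.4 CPM (8.30-fold, 5.37 to 13.1), and 47.6% of GS-KO and 41.2% of control NK-like cells had a UMI.

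**Figure D1:**
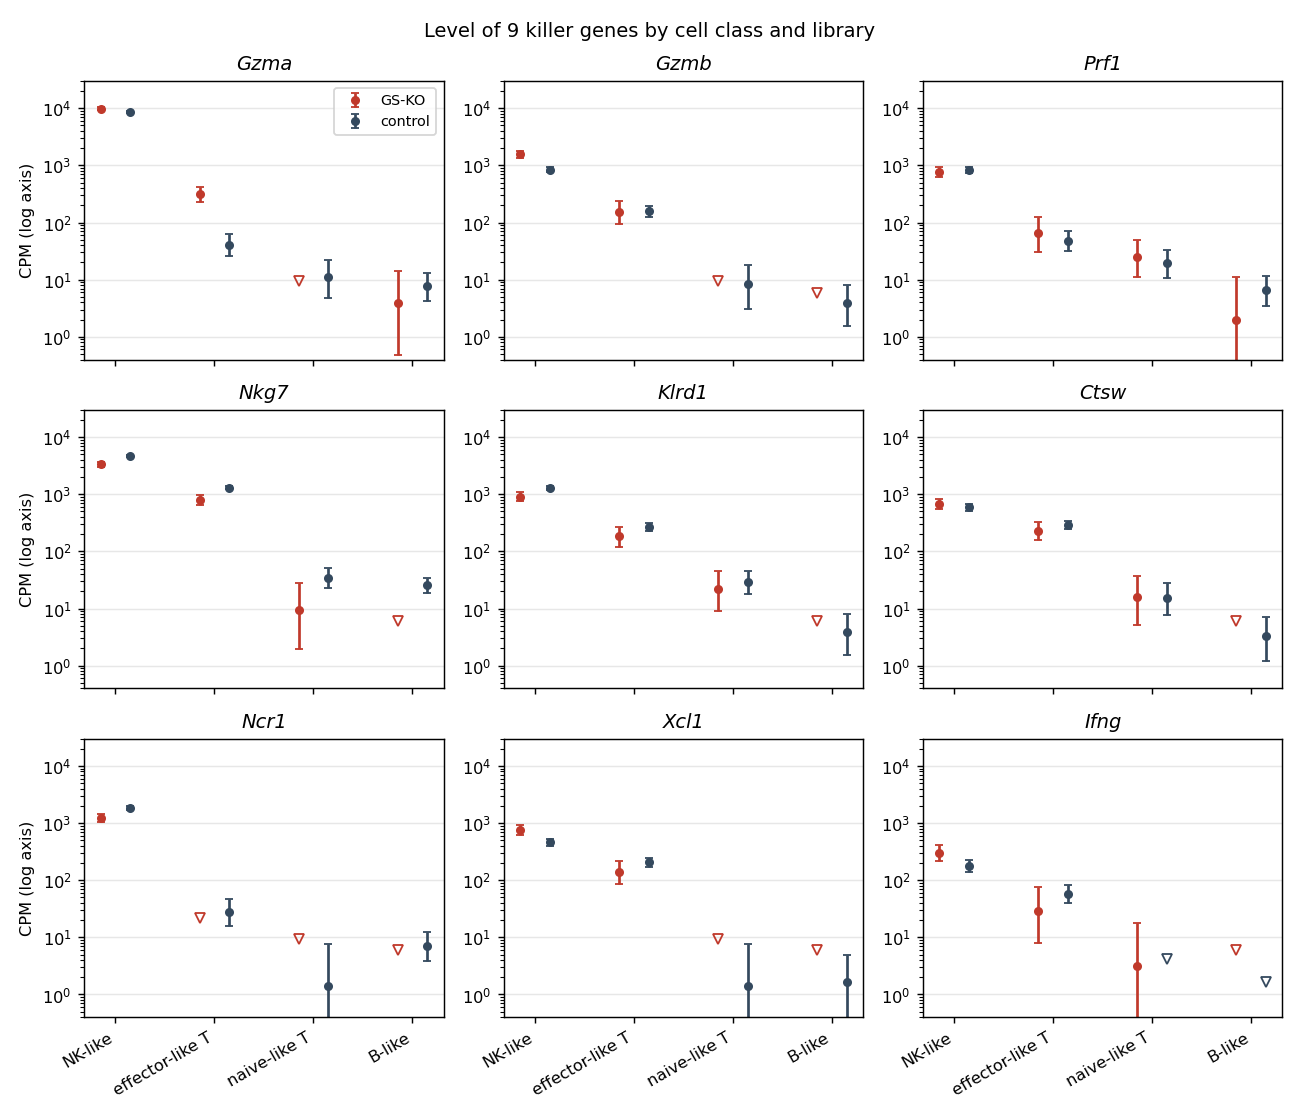
Level of 9 killer genes in CPM on a log axis by cell class, GS-KO in red and control in dark blue; points are summed UMIs over the cells of 1 library, bars are 95% Poisson intervals, and open triangles stand at the level of 3 counts where no UMI was found. Gzma is at 9832 and 8671 CPM in NK-like cells, GS-KO first, and all 9 genes are higher in NK-like than in effector-like T-like cells.

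Almost all of these transcripts lay in NK-like, T-like or dividing cells. Between 94.9% and 100% of each gene's UMIs in a library were in these. Of the 744 Nkg7 UMIs of the GS-KO library, 89 lay in 4 of the 7 cells of the dividing sub-cluster that passed neither a T nor an NK marker gate. In every other class the levels stood between 0 and 25.3 CPM. The top value, Nkg7 in control B-like cells, rested on 1 cell that held 35 of 46 UMIs. Of the 108 UMIs of killer genes in control B-like cells, 74 came from 1 cell with 8 of the genes detected, while no other such cell had more than 3. Of 20 pairs of gene and library, 18 had a share of cells with a UMI in NK-like cells whose interval lay wholly above that in T-like cells. After each cell was thinned to 1000 UMIs, which left out 253 shallower cells, 16 of the 20 did.

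Part of the distance between NK-like and T-like cells is the naive-like T-like cells, in which killer genes were low. Against the effector-like T-like cells alone, 9 of 9 genes were still called higher in NK-like cells in GS-KO (18.7% of genes measured) and 9 of 9 in control (9.65%), and 0 lower (3.86% and 5.13% of genes). The median log2 ratio was 3.34 and 2.26, beside 0.38 and 0.18 over all genes. Ctsw had the smallest ratio in each library, 2.98 (1.97 to 4.63) in GS-KO and 2.07 (1.69 to 2.56) in control. Nkg7 stood at 4.18 (3.39 to 5.21) in GS-KO and 3.54 (3.24 to 3.87) in control, and Xcl1 at 5.48 (3.34 to 9.46) and 2.25 (1.77 to 2.88). Klrd1 stood at 4.95 (3.20 to 7.94) and 4.80 (3.98 to 5.81), and Ifng at 10.3 (3.74 to 39.6) and 3.08 (1.99 to 4.86). The control value of Xcl1 came to 1.46 with the cell holding most of its UMIs left out of each side, under the 2-fold limit. Gzma stayed 31.0-fold (22.9 to 43.1) and 211-fold (139 to 338) higher in NK-like cells.

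Effector-like exceeded naive-like T-like cells in 5 of 5 measured genes in GS-KO, where 7.96% of genes were called higher, and in 8 of 8 in control, where 13.7% were. None was called lower, against 6.44% and 3.4%. Effector and naive states had been assigned from markers without these genes. Nkg7 was at 796 CPM in effector-like and 9.50 CPM in naive-like cells in GS-KO (83.8-fold, 27.9 to 413), and at 1308 and 34.8 CPM in control (37.6-fold, 25.2 to 58.4). Ctsw was 14.4-fold (5.57 to 47.6) and 18.6-fold (10.1 to 38.1) higher, and Klrd1 8.32-fold (3.50 to 22.8) and 9.11-fold (5.74 to 15.2), GS-KO first. In control, Xcl1 was at 205 CPM in effector-like cells, from 110 UMIs, and had 1 UMI in naive-like cells (147-fold, 25.9 to 5863). Prf1 was the least different, at 2.62-fold (0.897 to 7.80) in GS-KO from too few UMIs to be called, and 2.48-fold (1.25 to 5.15) in control.

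**Figure D2:**
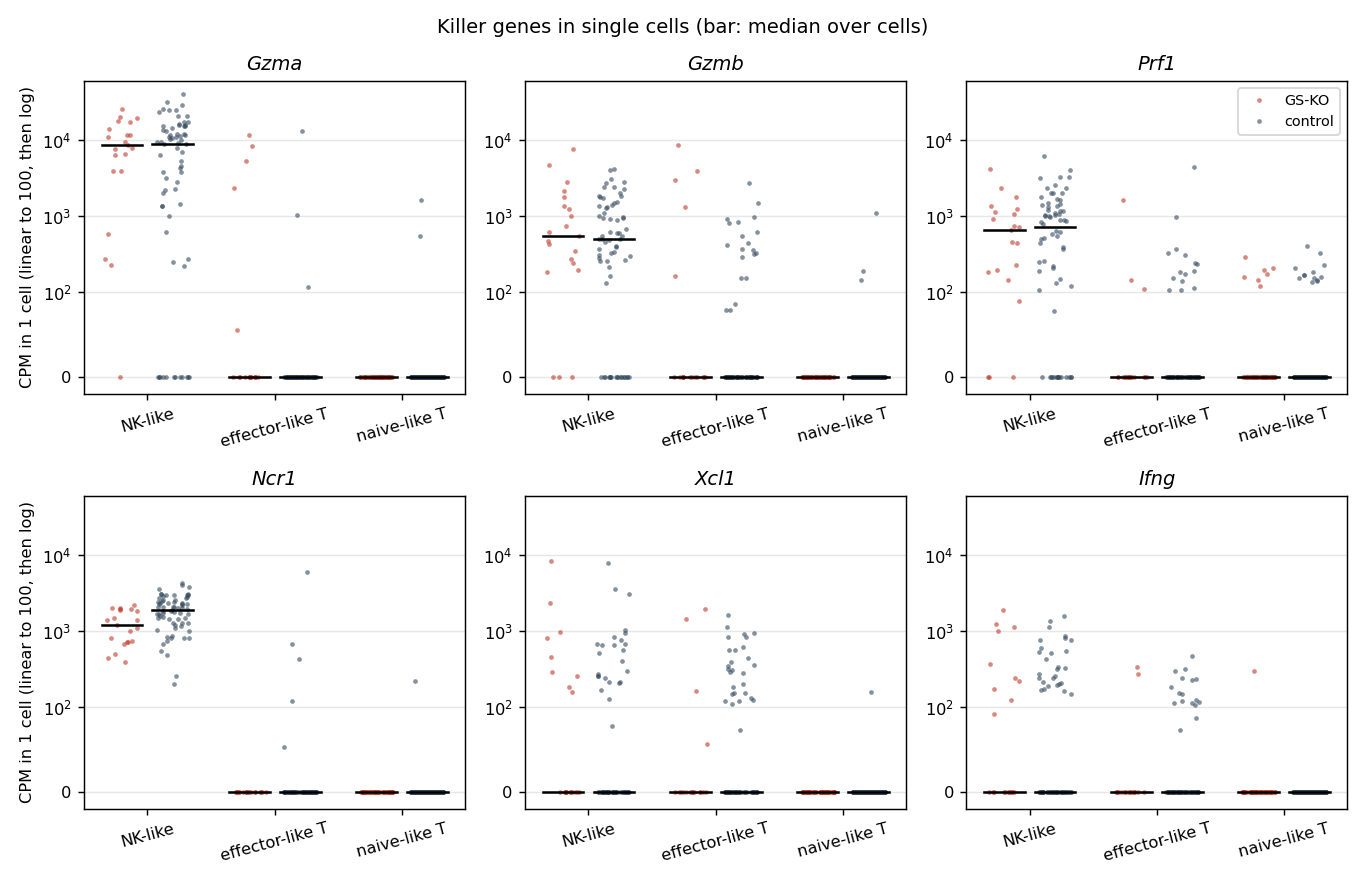
CPM of 6 killer genes in single cells on an axis that is linear to 100 and logarithmic above, GS-KO left of control in each class; 1 point is 1 cell and the bar is the median over cells. Ncr1 is above 0 in all NK-like cells and Gzma at 0 in 1 of 21 GS-KO and 12 of 68 control NK-like cells, whereas Xcl1 and Ifng are at 0 in 43 and 40 of the 68 control NK-like cells, and most T-like cells are at 0 for all 6.

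The effector-like T-like cells were of 2 sub-clusters that used the genes differently. Sub-cluster 1 (4 GS-KO and 31 control cells) was led by T cell receptor genes, Cxcr6 and Il2rb. Its leaders over the other T-like, NK-like and dividing cells together included Socs2 and Il4. Sub-cluster 6 (14 and 41 cells) was also led by T cell receptor genes, with Cd8b1, S100a4 and Ly6c2 among its leaders. It had a UMI of Cd8a in 36.6% and of Cd4 in 24.4% of its control cells. Both sub-clusters are large enough in the control library. There, 7 of 8 measured genes were higher in sub-cluster 1 than in sub-cluster 6, against 8.09% of genes measured. Of the same genes 0 were lower, against 5.73%. Xcl1 was at 426 CPM in sub-cluster 1 and 26.9 CPM in sub-cluster 6 (15.8-fold, 7.74 to 37.7), and Ifng at 121 and 6.73 CPM (18.0-fold, 4.56 to 156). Nkg7 was the gene not called, at 1738 and 962 CPM (1.81-fold, 1.55 to 2.11). Between the libraries, sub-cluster 1 had 1 of 7 measured genes called higher in its 4 GS-KO cells than in its 31 control cells (Gzma, 2.01, 0.666 to 5.10), against 6.37% of genes measured, and 4 lower, against 18.9%. The 4 were Nkg7 (0.425, 0.269 to 0.641), Ctsw (0.286, 0.0764 to 0.754), Gzmb (0.374, 0.0750 to 1.15) and Klrd1 (0.0818, 0.00205 to 0.467), and 4 cells limit these values.

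Against NK-like cells of the control library, the cells of sub-cluster 1 did not differ beyond counting error in the summed level of Xcl1. They were called lower in the granule genes Gzma, Gzmb, Prf1 and Nkg7. Summed Xcl1 was at 426 CPM in sub-cluster 1 and 461 CPM in NK-like cells, a ratio of 0.924 (0.718 to 1.18). It was 1.47 without the top cell of each, which in NK-like cells held 81 of 184 UMIs. Per cell, Xcl1 had a median of 281 CPM in sub-cluster 1, with 8 of 31 cells at 0. In NK-like cells the median was 0 CPM, with 43 of 68 cells at 0. Ifng stood at a ratio of 0.681 (0.426 to 1.06) and Ctsw at 0.728 (0.572 to 0.921). The ratio was 0.0910 (0.0532 to 0.146) for Prf1, 0.0315 (0.0172 to 0.0533) for Ncr1 and 0.0106 (0.00664 to 0.0161) for Gzma. In all, 6 of 9 genes were called lower in sub-cluster 1, against 10.6% of genes measured, and 0 higher, against 4.83%. The sub-cluster had a UMI of Cd4 in 22.6% and of Cd8a in 6.45% of its control cells, and carried NK markers at a summed 2165 CPM.

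NK-like cells of the GS-KO and the control library differed by less than 2-fold in each killer gene. By the same rule 0 of 9 genes were called, where 4.19% of the 3414 genes measured were higher and 8.7% lower in GS-KO. The median log2 ratio was 0.18, beside -0.05 over all genes. Gzma was at 9832 CPM in GS-KO and 8671 CPM in control NK-like cells, a ratio of 1.13 (1.06 to 1.21), and Prf1 at 775 and 827 CPM, a ratio of 0.937 (0.746 to 1.17). Per cell, Gzma ran from 0 over a median of 8590 to 26115 CPM in GS-KO, and from 0 over 8853 to 40064 CPM in control. Nkg7 (0.719, 0.648 to 0.797), Klrd1 (0.714, 0.583 to 0.869) and Ncr1 (0.668, 0.562 to 0.789) had ratios with intervals below 1, and Ctsw stood at 1.15 (0.896 to 1.47). These intervals hold counting error alone and say nothing of the spread between mice.

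The higher values of GS-KO NK-like cells rested partly on single cells. Gzmb was at 1564 CPM in GS-KO and 842 CPM in control, a ratio of 1.86 (1.56 to 2.21), and 1 GS-KO cell held 85 of 216 UMIs. With the top cell of each library left out the ratio was 1.35. Xcl1 was at 767 and 461 CPM, a ratio of 1.66 (1.30 to 2.12), with 72 of 106 GS-KO UMIs and 81 of 184 control UMIs in 1 cell each, and 0.991 without these. Over 11 alternatives the Xcl1 ratio ran from 0.679 to 2.58. Ifng was at 304 and 178 CPM, a ratio of 1.71 (1.14 to 2.54), and 1.47 without the top cells. RNA of other cell types differed between the NK-like cells of the libraries: 12 hepatocyte markers summed to 57.9 CPM in GS-KO, with 9 at 0, and to 739 CPM in control, with 0 at 0. Macrophage markers summed to 29.0 and 208 CPM. Their part in the result was not tested.

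In T-like cells, Gzma was called higher and Nkg7 and Ifng were called lower in the GS-KO than in the control library. The interval of Ifng included 1. Of 8 measured genes 1 was called higher, against 1.82% of the 6250 genes measured, and 2 lower, against 10.4%. Nkg7 was at 266 CPM in GS-KO and 567 CPM in control, a ratio of 0.469 (0.386 to 0.564), and Ifng at 10.2 and 21.4 CPM, a ratio of 0.477 (0.145 to 1.24) from 5 and 31 UMIs. Klrd1 (0.608, 0.417 to 0.866) and Ctsw (0.622, 0.424 to 0.891) had ratios with intervals below 1 but within 2-fold. Xcl1 was at 38.9 and 76.7 CPM, a ratio of 0.507 (0.294 to 0.829), and 16 of its 19 GS-KO UMIs were in 1 cell. Gzmb (0.690, 0.408 to 1.12) and Prf1 (1.21, 0.658 to 2.14) had intervals that include 1, and both turned direction under other choices of cells and sums: Gzmb ran from 0.107 to 3.96 and Prf1 from 0.690 to 1.66 over 13 alternatives. Ctsw ran from 0.356 to 1.28 and Xcl1 from 0.0944 to 1.11 over the same alternatives. Ncr1 had 0 UMIs in GS-KO and 16 in control, which gives a ratio of at most 0.555. The median log2 ratio was -0.70, beside -0.16 over all genes.

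The make-up of the T-like cells differed between the libraries. Naive-like cells were 71.2% of GS-KO and 57.3% of control T-like cells, and effector-like cells 22.5% and 29.0%. A single naive-like sub-cluster held 53 GS-KO cells and 1 control cell, while others held 4 and 98, and 0 and 43. In those sub-clusters the library and the cell state cannot be told apart. Hepatocyte markers summed to 325 CPM in GS-KO and 739 CPM in control T-like cells. Within the effector-like cells, 1 of 8 measured genes was called higher (Gzma), against 2.6% of genes measured, and 0 lower, against 15.2%. Nkg7 stood at 796 and 1308 CPM, a ratio of 0.608 (0.492 to 0.746).

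Gzma stood at 88.0 CPM in GS-KO and 21.4 CPM in control T-like cells, a ratio of 4.10 (2.53 to 6.74), and at 317 and 41.0 CPM in effector-like cells, a ratio of 7.73 (4.52 to 13.6). The 43 GS-KO UMIs came from 5 cells, 1 of which held 26. Without the top cell of each library the ratio in T-like cells was 2.64. In sub-cluster 6 there were 37 UMIs in GS-KO and 0 in control, at least 35.5-fold higher, and Gzmb was at 174 and 84.1 CPM there (2.07, 1.07 to 3.96), where 3.12% of genes measured were higher and 16.1% lower. T-like cells with a UMI of Klrb1c, Klre1, Klra4, Klra7, Klra8 or Klra9, all NK receptor genes, 7 in GS-KO and 21 in control, held 40 of the 43 GS-KO UMIs, and Gzma was at 764 CPM in these GS-KO cells and 78.7 CPM in the control cells. In the T-like cells with no such UMI it was at 6.87 CPM in 73 GS-KO cells and 14 CPM in 227 control cells. The direction turned round under other ways of choosing T-like cells: the ratio was 0.928 with the dividing sub-cluster counted as T-like, and 0.0738 with cells chosen barcode by barcode from T and NK marker UMIs. That T gate left out, by its definition, every barcode with a UMI of these NK receptor genes. It took in dividing cells, 1 in GS-KO and 9 in control.

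**Figure D3:**
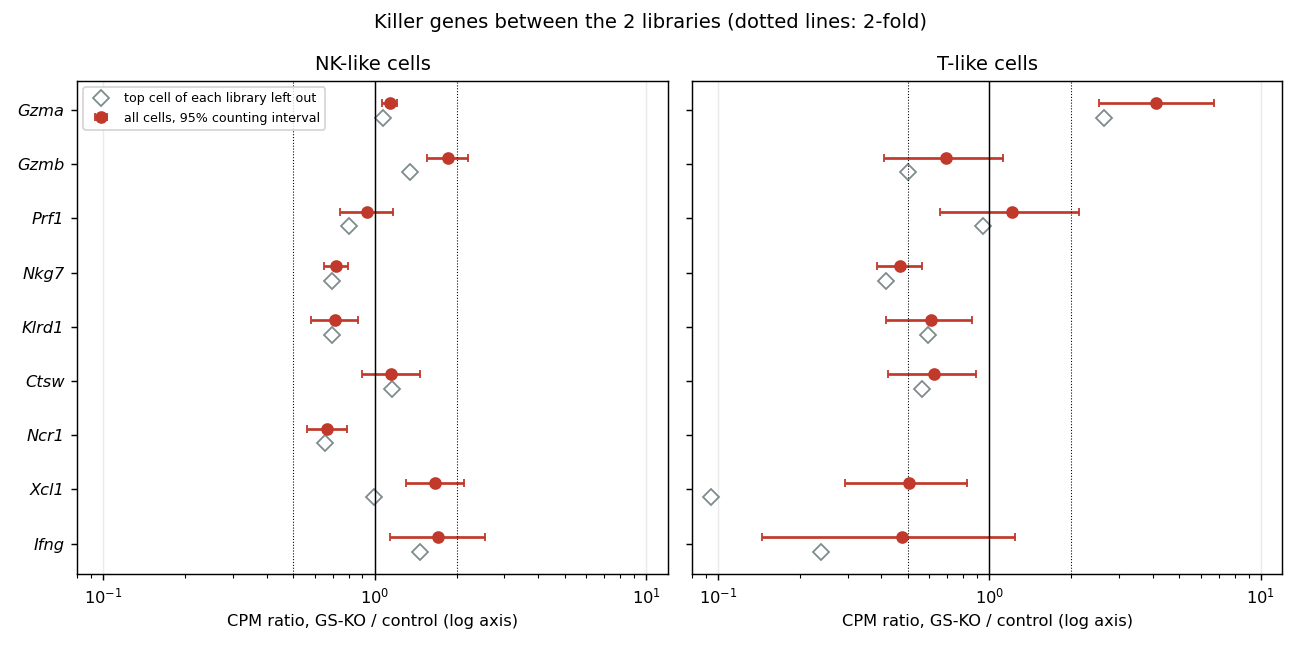
Ratio of CPM, GS-KO over control, on a log axis for 9 killer genes in NK-like (left) and T-like cells (right); filled points are all cells with 95% counting intervals, open diamonds the ratio with the top cell of each library left out, and dotted lines 2-fold. All NK-like ratios lie between 0.668 and 1.86, whereas T-like ratios run from 0.469 for Nkg7 to 4.10 for Gzma; Ncr1 has no GS-KO UMI in T-like cells and is not drawn there.

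NK-like cells were not uniform. Between 4 and 9 of the 10 genes were detected in each, with medians of 8 in GS-KO and 7 in control, against medians of 0 and 1 in T-like cells. Gzma and Gzmb levels went together over the cells (Spearman's rho 0.74 over 21 GS-KO and 0.57 over 68 control cells), and Prf1 and Xcl1 ran opposite (-0.55 and -0.51). They were the highest and the lowest of 36 pairs of genes in each library, where the median was 0.11 in GS-KO and 0.09 in control. These are descriptions, since cells of 1 library share its depth and preparation. The Xcl1 pattern led to a split of the NK-like cells, chosen after the values were seen and given with no test: cells with an Xcl1 UMI (9 GS-KO and 25 control) and cells without (12 and 43). Their median depth was 6432 and 5568 UMIs in GS-KO, and 6669 and 5012 in control, with the Xcl1 cells first.

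Cells with an Xcl1 UMI had less perforin and Gzma in each library. The split was chosen on the opposed levels of Prf1 and Xcl1, so its Prf1 values restate them. Prf1 was at 287 CPM in cells with and 1179 CPM in cells without an Xcl1 UMI in GS-KO, and at 342 and 1219 CPM in control. Gzma was at 6336 and 12735 CPM in GS-KO and at 6754 and 10222 CPM in control, and Nkg7 at 2809 and 3763, and 3912 and 5213 CPM. Ifng was higher in the cells with Xcl1, at 399 and 225 CPM in GS-KO and 258 and 113 CPM in control. Ncr1 did not keep a direction, at 1037 and 1405 CPM in GS-KO and 2024 and 1718 CPM in control, and neither did Gzmb, at 1724 and 1431 CPM, and 599.8 and 1038 CPM.

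The same cells differed in genes of ILC1. All 9 genes of an ILC1 list were higher by any amount in the cells with Xcl1 in both libraries, where 53% of 6277 genes with at least 2 UMIs were in GS-KO and 47.6% of 8945 in control. Itga1 and Cd200r1 rested on 2 UMIs each in a library, under the 3 counts taken as the floor. The list summed to 1005 and 133 CPM in GS-KO and 712 and 163 CPM in control. Il7r, the interleukin 7 receptor, was at 128 and 0 CPM in GS-KO and 84.1 and 9.07 CPM in control. Cxcr6, a chemokine receptor of liver-resident lymphocytes, was at 112 and 39.8 CPM, and 78.5 and 13.6 CPM. T cell receptor genes ran higher in the same cells: Cd3g was at 303 CPM (2 of 9 cells) and 13.3 CPM (1 of 12) in GS-KO, and at 263 CPM (5 of 25) and 63.5 CPM (6 of 43) in control. The part of T cell RNA in the split was not tested.

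**Figure D4:**
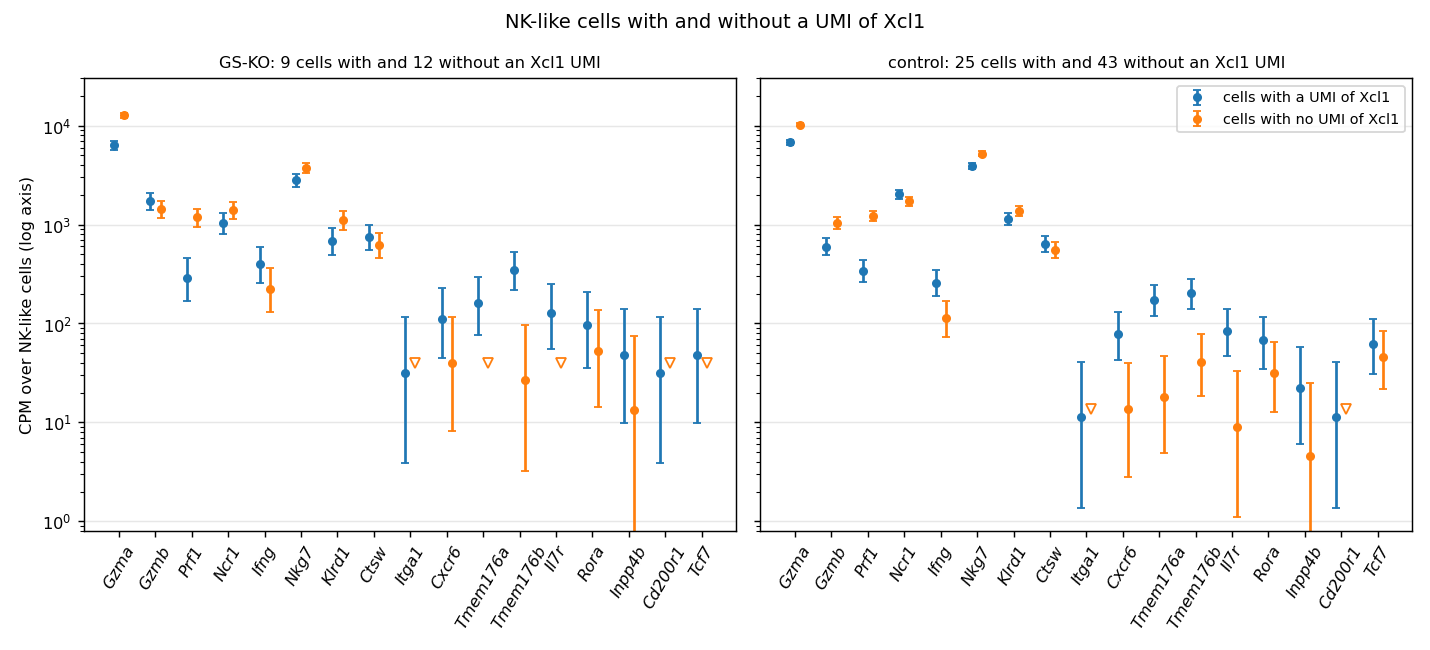
CPM on a log axis of 8 killer genes and the 9 genes of the ILC1 list in NK-like cells with (blue) and without (orange) a UMI of Xcl1, GS-KO left and control right; points are summed UMIs, bars 95% Poisson intervals, and open triangles the level of 3 counts where no UMI was found. Prf1 is at 287 against 1179 CPM in GS-KO and 342 against 1219 CPM in control, while Tmem176b is at 351 against 26.5 CPM and 202 against 40.8 CPM.

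A second difference among NK-like cells lay in Gzma itself, which had 0 UMIs in 1 of 21 GS-KO and 12 of 68 control cells. In those 12 control cells Prf1 was at 192 CPM, against 981 CPM in the other control NK-like cells, and Tcf7, a transcription factor of less mature lymphocytes, at 179 against 21.8 CPM. Nkg7 stood at 3997 against 4786 CPM and Ncr1 at 1627 against 1910 CPM, so the cells without Gzma still carried both. This split, too, was chosen after the values were seen.

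Dividing cells of the control library carried killer genes above the level of the T-like cells. Nkg7 was detected in all 24 cells, from 367 over a median of 2566 to 5375 CPM. Gzma had 1166 UMIs in 18 of 24 cells, from 0 over a median of 1159 to 17677 CPM. Of these cells, 9 passed a gate of T marker UMIs, with Gzma at 747 CPM, and 5 passed a gate of NK marker UMIs, with Gzma at 9346 CPM. The 9 GS-KO cells in the sub-cluster had neutrophil markers at 73913 CPM in sum and T cell markers at 145 CPM, with 11 of 15 at 0. Of these, 1 passed the T gate and 1 the NK gate, which alone held 424 Gzma UMIs, so the libraries were not compared in the sub-cluster.

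Other genes of the killing pathway were read from lists. Among other granule proteins and death ligands, 2 of 4 measured genes were higher in NK-like than in T-like cells in GS-KO and 2 of 7 in control, with 1 lower in control. Over all genes measured, 20.7% were higher in GS-KO, and 15.2% higher and 6.82% lower in control. Fasl, the Fas ligand, was 17.7-fold (6.65 to 59.2) and 8.46-fold (5.16 to 14.3) higher, and Ctsc, the protease that activates granzymes, 4.79-fold (2.45 to 9.55) and 3.33-fold (2.27 to 4.86). Srgn, the granule proteoglycan, stood at 1.60 and 1.15, and Lamp1, a lysosome membrane protein, at 0.927 and 1.15. Of the release machinery, 0 of 2 measured genes were higher in GS-KO and 3 of 11 in control. So few measured genes do not set the list apart from those shares. Vamp8 stood at 1.60 and 1.42 and Copb1 at 1.77 (0.835 to 3.57) and 1.72 (1.17 to 2.48). Inhibitors of granzymes differed in the direction of the granzymes: 2 of 2 measured serpins were higher in GS-KO and 2 of 4 in control, with Serpinb9 at 26.9-fold (10.6 to 87.6) and 16.3-fold (10.2 to 27.2) and Serpinb6b at 26.5-fold (11.3 to 76.1) and 10.2-fold (7.36 to 14.4).

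Receptors and their adaptors followed the cell classes. Of the NK receptor and adaptor list, 14 of 16 measured genes were higher in NK-like cells in GS-KO, with 1 lower, and 19 of 21 in control. Over all genes measured, 20.7% were higher and 7.61% lower in GS-KO, and 15.2% higher in control. The names of the NK-like cells rest on some genes of the list, so the count is a description. Tyrobp, the DAP12 adaptor, was at 2628 CPM in NK-like and 2.05 CPM in T-like cells in GS-KO, from 1 UMI in T-like cells, and at 3514 and 80.9 CPM in control. Fcer1g, another adaptor of the list, was 290-fold (98.2 to 1417) and 27.2-fold (22.2 to 33.6) higher. Hcst and Cd247 of the same list, named after their values were seen, did not follow. Hcst was at 601 CPM in NK-like and 485 CPM in T-like cells in GS-KO, and at 456 and 405 CPM in control. Cd247, the gene called lower in GS-KO, was at 57.9 and 157 CPM in GS-KO and at 120 and 169 CPM in control. Klra4, a Ly49 receptor, was 135-fold (36.0 to 1131) and 169-fold (64.8 to 625) higher, Klre1 110-fold (29.1 to 926) and 22.4-fold (15.6 to 33.0), and Klrb1b at least 35.4-fold and 305-fold (53.2 to 12171). Of the transcription factors, 8 of 8 measured were higher in GS-KO and 9 of 11 in control, beside the same 20.7% and 15.2%. Eomes, a T-box factor of NK cells and a marker used to name them, was 19.1-fold (7.26 to 63.6) and 15.3-fold (9.07 to 27.2) higher. Zeb2, a factor of terminal maturation, was 15.9-fold (6.44 to 47.2) and 26.0-fold (14.1 to 52.2) higher. Irf8 was at least 37.8-fold and 36.3-fold (22.6 to 61.6) higher. The factors with most UMIs differed less, Id2 at 2.65 (1.94 to 3.59) and 1.46 (1.25 to 1.71), and Hopx at 4.65 (2.86 to 7.60) and 2.46 (1.96 to 3.08).

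Chemokines made up the other secreted products. Ccl5 was at 19359 CPM in NK-like and 1409 CPM in T-like cells in GS-KO and at 19962 and 1402 CPM in control, 13.7-fold (12.6 to 15) and 14.2-fold (13.6 to 15). Ccl4 was 75.2-fold (28.3 to 282) and 69.7-fold (40.0 to 133) higher, and Ccl3 at least 109-fold and 18.9-fold (10.8 to 35.3). Ltb, the lymphotoxin beta gene, stood at 1.00 (0.801 to 1.24) and 0.639 (0.559 to 0.728). In all, 3 of 4 measured cytokines and chemokines were higher in GS-KO and 3 of 5 in control, with Il4 lower in control. Over all genes measured, 20.7% were higher and 7.61% lower in GS-KO, and 15.2% higher and 6.82% lower in control. These shares apply to each count in this paragraph. Among receptors of activating cytokines, 4 of 6 were higher in GS-KO and 5 of 8 in control, with 2 lower in control. Il2rb, a marker of the NK-like naming, was 4.39-fold (2.98 to 6.50) and 4.21-fold (3.49 to 5.08) higher, and Il18rap 14.9-fold (5.46 to 50.5) and 10.6-fold (6.90 to 16.8). Ifngr1, a chain of the interferon gamma receptor, was 3.31-fold (2.51 to 4.38) and 3.05-fold (2.58 to 3.61) higher, and Il18r1 2.21-fold (1.29 to 3.74) and 2.62-fold (1.91 to 3.58). No checkpoint gene was measured in GS-KO, and of 3 in control Entpd1 (5.30, 2.48 to 11.7) and Tox (2.03, 0.976 to 4.06) were called higher and Ctla4 lower. In GS-KO, Entpd1 stood at 17.7 (1.98 to 837) from 5 and 1 UMIs and Tox at 1.09 (0.259 to 3.53) from 4 and 13, NK-like first.

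Between the libraries, 3 of 53 measured genes of these lists were called higher and 4 lower in NK-like cells, near the 4.19% and 8.7% over all genes. Ccl3, a chemokine that draws monocytes, was at 666 CPM in GS-KO and 195 CPM in control, a ratio of 3.41 (2.49 to 4.67), while Irf8 was at 232 and 476 CPM (0.487, 0.324 to 0.710). Of 21 NK receptor genes 2 were higher (Klra1 and Klra7, at 2.06 each) and 1 lower (Cd247, at 0.481). In T-like cells, 9 of 12 measured NK receptor genes were lower in GS-KO, against 10.4% of all genes measured, and 0 higher, against 1.82%. Sub-cluster 1, which carried NK markers, made up 4 of 80 GS-KO and 31 of 248 control T-like cells. Within it 6 of 12 were lower, against 18.9% of genes measured, and 0 higher, against 6.37%. In effector-like cells 9 of 12 were lower, against 15.2%, and 0 higher, against 2.6%. The part of the make-up of the T-like cells was not tested. Macrophage markers summed to 28.6 CPM in GS-KO and 189 CPM in control T-like cells, and monocyte markers to 249.5 and 428 CPM. Tyrobp and Fcer1g are also genes of myeloid cells, and the part of myeloid RNA was not tested. Among the NK receptor genes lower in GS-KO T-like cells, Tyrobp was at 2.05 CPM in GS-KO and 80.9 CPM in control (0.0253). Klrk1 was at 4.09 and 62.9 CPM (0.065, 0.00776 to 0.242). Tbx21, the factor T-bet, was at 2.05 and 20.7 CPM from 1 and 30 UMIs. These genes were named after their values were seen.

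Over 16 points, each a class in a library with at least 20 cells, the genes whose log2 level was most like the mean of the 10 were Eomes (Pearson's r 0.993), Fasl (0.992), Samd3 (0.991), Klrc2 (0.984) and Klre1 (0.981). For single members the nearest were Fasl for Ifng (0.997) and Il2rb for Ctsw (0.995). All points share their library's depth, and several classes sit near 0, so the values describe a shared pattern over classes. Eomes, Klre1 and Il2rb are also markers used to name the NK-like cells, so their likeness over named classes is partly built in.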

How the data were processed

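Cells from the liver of 1 GS-KO and 1 control mouse were sequenced on a NextSeq 2000 after 10x library preparation, per the labels' protocols. These call the preparation 3PrimeV2 and once snRNA-seq, which is unsettled here. The deposited matrices hold UMI counts per gene and barcode, made with Cell Ranger on mm10 per the submitters' processing notes. The matrix header gives 3.1.0 as the software version. Filters before deposit are not given in the sources used here.

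Barcodes with at least 500 UMIs, 200 genes and at most 20% mitochondrial UMIs were kept (662 GS-KO and 3275 control), and Scrublet in scanpy 1.11.5 removed 7 and 24 doublets. Counts were normalised to 10000 UMIs and logged. Leiden clusters (2000 variable genes without the 10 killer genes, 30 components, 15 neighbours, resolution 1) were named from marker lists, and T and NK clusters were clustered again. A class needed 3 markers at 2-fold or more. Kupffer and macrophage clusters were joined, and the dividing sub-cluster set apart, after the data were seen. CPM are summed UMIs scaled to a total of 1000000 in the same cells, with exact Poisson intervals, ratios have conditional binomial intervals, and shares are Clopper-Pearson. A count of 0 was set to 3 counts. The ratio step was tested on simulated counts. The 10 genes and all lists were chosen with earlier results of these data known. The text names all 10 genes, and of each list the 2 genes with most UMIs and up to 3 at least 2-fold apart the same way in both libraries. Other genes are named as chosen after their values. Alternatives tried were 2 cluster resolutions, clustering with the 10 genes, doublets kept, stricter cell filters, thinning, a mean over cells, a gate per barcode, another total, leaving out the top cell, and 2 choices of T-like cells added after the data were seen. No p-values are given. The result of a list of conventional NK genes is not reported here.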

Additional observations from a re-analysis of the deposited data

Results flagged for a closer look

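The Xcl1 ratio between the libraries lay on opposite sides of 1 in the 2 lymphocyte classes. Its ratio, GS-KO over control, was 1.66 (1.30 to 2.12) in NK-like cells and 0.507 (0.294 to 0.829) in T-like cells, and each counting interval lay wholly on 1 side of 1. With 1 library per genotype the difference between the classes was not tested. Without the cell holding most Xcl1 UMIs in each library, the ratios were 0.991 and 0.0944. Over the alternatives the ratio ran from 0.679 to 2.58 in NK-like cells and from 0.0944 to 1.11 in T-like cells, so it crossed 1 in each class.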

How the results depend on the processing

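No paired analysis was possible because each genotype has 1 library and the labels give no replicate numbers. All 234 ratios of NK-like over T-like cells, over 9 genes, 2 libraries and 13 alternatives, stayed at 2-fold or more, though 76 moved beyond their main intervals, Gzma over 16.8 to 1865 in GS-KO and 13.8 to 1168 in control. The counts of genes called between the libraries were less stable. In NK-like cells the count was 0, and it was 1 with a mitochondrial limit of 10% (Gzmb, 2.03), 1 after thinning to 1000 UMIs (Xcl1, 2.58) and 1 with a gate per barcode (Ifng, 2.21). In T-like cells the count was 3, and it was 5 with at least 1000 UMIs per cell, 7 with the gate, 1 with mitochondrial, ribosomal, haemoglobin and hepatocyte genes left out of the total, 7 with the dividing sub-cluster counted as T-like and 1 in effector-like cells only. Gzma in T-like cells turned round to 0.0738 with the gate and 0.928 with the dividing sub-cluster. The gate leaves out T-like cells with an NK receptor UMI, which held 40 of the 43 GS-KO Gzma UMIs, and takes in dividing cells. The part of each in the turn was not tested. Over the other settings it reached 13.3. Among ratios of single genes, 321 stayed within their intervals, 113 moved beyond them, and 2 called values, both of Gzma in T-like cells, turned round. With values not called included, 15 of 202 ratios between the libraries crossed 1. The 21 GS-KO NK-like cells limit every value of that class.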

Other observations

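T-like cells were also split by co-receptor UMIs. In CD8-detected effector-like cells, Gzma was at 389 CPM in 9 GS-KO cells and 0 CPM in 20 control cells. The 9 GS-KO cells include the 1 cell that held 26 of the 43 Gzma UMIs of GS-KO T-like cells. The value of 389 CPM thus rests mostly on 1 cell. In CD4-detected effector-like cells of the control library (17 cells), Gzmb was at 343 CPM and Xcl1 at 276 CPM, with 0 UMIs of Gzma. The GS-KO library held 2 CD4-detected effector-like cells, which is too few to compare. The sub-cluster without a state, led by Dapl1 and Cd8b1, carried 27 UMIs of the 10 genes in 5 GS-KO cells and 132 UMIs in 34 control cells, of which Nkg7 made up 70.4% and 71.2%.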
